A study of Homo sapiens with 6 samples.

Results

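The mature strands of the miR-23, miR-27 and miR-24 hairpins were followed in small RNA libraries of A549 cells with and without *MIR21*. The 10 strands were chosen by name from the deposited miRNA table, not by their values, and all 10 were found among its 2588 named miRNAs. All 10 passed the filter on low values (1 or more in 3 or more of the 6 libraries), as did 607 miRNAs in all. A549 is an established human cell line from a lung adenocarcinoma. The groups were parental cells (Ctrl, 3 libraries) and cells whose *MIR21* locus was deleted with Cas9 and a pair of sgRNAs (*MIR21*-KO, 3 libraries), all grown in the same medium and harvested 48 h after seeding. The knockouts were raised from sorted single cells, and the labels do not say whether the libraries of a group come from separate cultures or from 1 clone. The p-values below therefore measure the spread between these libraries, which may be technical.

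The strands come from 2 clusters of 3 hairpins each. A primary transcript of a cluster is cut into hairpins by Drosha, and each hairpin is cut by Dicer into a 5p and a 3p strand, of which one is usually kept by an Argonaute protein as the guide and the other is degraded. In these hairpins the 3p strand is the usual guide. miR-27 is known for restraining adipogenic regulators such as PPARG, and miR-24 for targeting cell cycle genes. On GRCh38, the chromosome 19 cluster spans chr19:13836287-13836659 on the minus strand, where MIR23A, MIR27A and MIR24-2 lie within an exon of a long non-coding transcript. The chromosome 9 cluster spans chr9:95085208-95086088 on the plus strand of the protein-coding gene C9orf3, with MIR23B and MIR27B in an intron and MIR24-1 over an annotated exon. A further hairpin, MIR3074, covers MIR24-1 on the opposite strand.

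The mature sequences are shown because paralogs of the 2 clusters are nearly identical, which bears on how reads could be told apart. All 10 strands were matched in the RefSeq miRNA table (GRCh38.p14), and the seed, bases 2 to 8 from the 5′ end, is in capitals.
hsa-miR-23a-3p: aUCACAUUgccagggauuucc
hsa-miR-23b-3p: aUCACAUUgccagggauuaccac
hsa-miR-27a-3p: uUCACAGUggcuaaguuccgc
hsa-miR-27b-3p: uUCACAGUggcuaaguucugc
hsa-miR-24-3p: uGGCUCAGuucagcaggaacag
hsa-miR-23a-5p: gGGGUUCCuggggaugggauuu
hsa-miR-27a-5p: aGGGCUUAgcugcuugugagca
hsa-miR-27b-5p: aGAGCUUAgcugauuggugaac
hsa-miR-24-2-5p: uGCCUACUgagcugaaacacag
hsa-miR-24-1-5p: uGCCUACUgagcugauaucagu
Within a pair of paralogs the 3p strands share the whole seed. Counted from the 5′ end, miR-23a-3p and miR-23b-3p differ by U19A over the 21 bases of the former, and miR-23b-3p is longer by 2 bases. miR-27a-3p and miR-27b-3p differ only by C19U. miR-24-3p is the same 22-base strand from both loci, whereas the 5p strands of these loci share the seed and differ at 6 of 22 positions (A16U, C18U, A19C, C20A, A21G and G22U from miR-24-2-5p to miR-24-1-5p). The 10 strands are 21 to 23 bases long, so a level per miRNA needs no correction for length, but ligation and amplification can favour one strand over another.

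The libraries held 5577287 to 9768152 miRNA reads. The deletion matched the labels in every library, with miR-21-5p at 65.5% to 69.4% of miRNA reads in Ctrl and at 0.0156% to 0.0254% in *MIR21*-KO. The first principal component over 321 other miRNAs held 76.1% of the variance and divided the libraries across the groups. On one side, called set A here, were *MIR21*-KO replicate 3 and the Ctrl libraries of replicates 1 and 2, and on the other, set B, were both remaining *MIR21*-KO libraries with Ctrl replicate 3. The labels name no batch, and the sets were read from the values after leaving out the 10 strands and miR-21. For small RNA libraries the paper names preparation with a NEXTflex kit or at Novogene, and sequencing at TU Dresden or Novogene. It does not say which route each library took, so whether the sets follow these routes was not tested. Of 6 epithelial marker miRNAs, 5 passed the filter, whereas miR-205-5p did not exceed 0.288. Their sum did not overlap between the conditions, at 1374 to 2171 in Ctrl and 879 to 1269 in *MIR21*-KO, and neither did that of 5 blood miRNAs (2 of which passed), at 137 to 218 and 78.7 to 92.8. Most of these sums came from miR-200b-3p (1193 to 1953 in Ctrl and 530 to 1038 in *MIR21*-KO) and miR-486-5p (135 to 175 and 75.7 to 83.6). In contrast, miR-200a-3p, miR-200c-3p, miR-141-3p and miR-429 overlapped between the conditions, and miR-200c-3p was highest in a *MIR21*-KO library (126). The blood miRNA miR-451a overlapped as well (1.69 to 41.6 in Ctrl and 2.45 to 8.97 in *MIR21*-KO). By library set, the sum of 2 endothelial miRNAs ran from 2446 to 3658 in set A and from 674 to 991 in set B, and that of 4 mesenchymal miRNAs, 3 of which passed the filter, from 612 to 1231 and from 248 to 491. miR-126-3p and miR-143-3p made up nearly all of these sums. The scarcer miR-145-5p of the mesenchymal list was higher in set B (9.31 to 12.97) than in set A (2.67 to 4.595), and miR-126-5p of the endothelial list overlapped (7.92 to 26.7 and 4.42 to 9.88). The liver miRNA miR-122-5p lay at 51.9 to 141 in set A and at 7.90 to 16.2 in set B. The sums of the epithelial (1269 to 2171 against 879 to 2070), the blood (92.8 to 218 against 78.7 to 137) and 3 muscle miRNAs (1 of which passed, 11.8 to 71.1 against 5.93 to 22.9) overlapped between the sets. None of the markers was at 0 in all libraries. In bulk RNA, fewer cells of a type and less RNA per cell cannot be told apart. The part of these markers in the results below was not tested. That of the library sets was not tested either, beyond values within each set and fits with a term for the sets.

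The strand with the highest level was miR-27b-3p, which stood between place 3 and place 9 of all miRNAs in the 6 libraries. On the deposited scale of TMM-scaled counts per 1000000, it lay at 30551, 19149 and 31700 in Ctrl, and the *MIR21*-KO libraries gave 28422, 29997 and 28133. Only Ctrl replicate 2 stood low, and the other 5 libraries lay close together. By the mean of all libraries it was followed by miR-24-3p (5435), miR-27a-3p (3640), miR-23b-3p (2202) and miR-23a-3p (894). The 5p strands came after these, with miR-27a-5p (638), miR-27b-5p (424), miR-24-2-5p (180), miR-24-1-5p (51.8) and miR-23a-5p (6.78). miR-27b-3p was above miR-24-3p, and miR-24-3p above miR-27a-3p, in 6 of 6 libraries. miR-27a-3p was above miR-23b-3p in only 3 of 6 libraries, those of set A, and miR-23a-3p above miR-27a-5p in only 3 of 6, those of set B. Over all libraries these neighbours did not differ beyond their spread (log2 difference of 0.92 with an SD of 1.22 and of 0.43 with an SD of 2.45), but their order turned with the library set. miR-27b-5p was above miR-24-2-5p in 5 of 6 libraries, and the remaining neighbours kept their order in all 6.

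**Figure D1:**
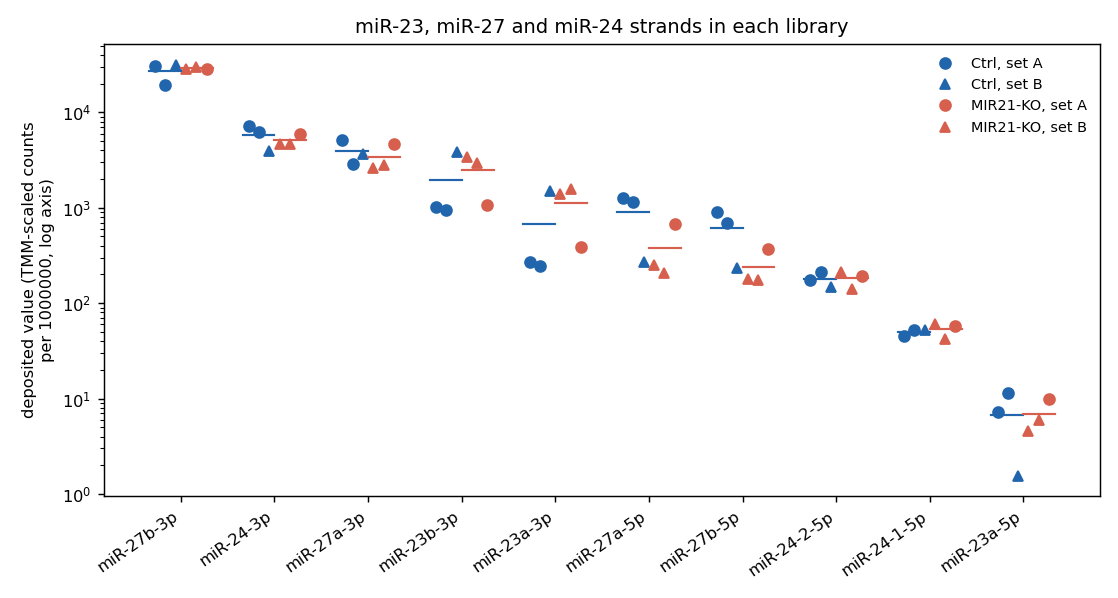
Deposited value of each strand in each library on a log axis, ordered by the mean of 6 libraries, with Ctrl in blue, *MIR21*-KO in red, circles for set A, triangles for set B and short lines for group means. Ctrl and *MIR21*-KO overlap for all 10 strands, while circles and triangles part for miR-23a-3p, miR-23b-3p, miR-27a-5p, miR-27b-5p, miR-24-3p and miR-23a-5p.

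Together the 10 strands made up 2.57% ± 0.704 of miRNA reads in Ctrl and 6.83% ± 1.22 in *MIR21*-KO (SD, n = 3 each). This share depends on miR-21-5p, which takes most Ctrl reads. Of the miRNA reads other than miR-21, the 10 strands held 8.06% ± 2.50 and 6.83% ± 1.22 (SD, n = 3 each). Their summed deposited values were 41147 ± 8409 and 41781 ± 713 (SD, n = 3 each), so the sums lay close together while the Ctrl libraries varied more. miR-27b-3p alone was 60.9% to 70.5% of the reads of the 10 strands in each library.

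Whether deletion of *MIR21* changed these strands was asked in a limma fit of all 607 miRNAs, with log2(value + 1) as the response. None of the 10 strands was called higher, where 0% of all miRNAs tested were called, and none was called lower, where 0.824% were called (limma, adjusted p under 0.05). The adjusted p ran from 0.538 to 0.973, and 0 of the 10 strands had an unadjusted p under 0.05, against 6.75% of all miRNAs in the higher and 4.45% in the lower direction. edgeR on the recovered reads also called 0 of the 10 strands, where 0% of all miRNAs were called higher and 1.15% lower, and 0 had an unadjusted p under 0.05 (5.11% of all in the higher and 5.11% in the lower direction). DESeq2 called 0 of the 10 strands, where 0.659% of all were called higher and 3.13% lower. It gave 1 of them, miR-27b-5p, an unadjusted p under 0.05, in the lower direction (7.08% of all lower and 4.45% higher). The median log2 fold change was 0.053 over the 10 strands and 0.24 over all 607 miRNAs, and 6 of the 10 strands were positive against 61.8% of all. For 0 of the 10 strands were the groups free of overlap, whereas every *MIR21*-KO library lay above every Ctrl library in 9.56% and below in 6.59% of all miRNAs tested. The intervals of the fold changes given below were wide, and with 3 libraries a group changes within them are not excluded.

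Of the guide strands, those of miR-27 and miR-24 varied least, the highest library standing 1.66- to 1.96-fold above the lowest. miR-27b-3p had a mean of 27133 ± 6938 in Ctrl and 28851 ± 1003 in *MIR21*-KO (SD, n = 3 each), a log2 fold change of 0.12 with a 95% interval from -0.60 to 0.85 in limma. For its paralog miR-27a-3p, Ctrl held 5157, 2845 and 3701, and *MIR21*-KO 2629, 2811 and 4695. The groups overlapped, and the log2 fold change was -0.22 (interval -1.19 to 0.76). miR-24-3p, the strand made by both clusters, lay at 7224, 6151 and 3932 in Ctrl, beside 4649, 4665 and 5991 in *MIR21*-KO. Its log2 fold change was -0.14 (interval -1.02 to 0.73), and the low library was Ctrl replicate 3. Scaled to all miRNA reads, miR-21 included, the log2 fold changes of these 3 strands were 1.51, 1.17 and 1.24 and passed the test, beside a median of 1.34 over all miRNAs on that scale. The share of all miRNAs that passed on that scale is not given here.

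The guide strands of miR-23 varied more, 6.38-fold for miR-23a-3p and 3.97-fold for miR-23b-3p. miR-23a-3p lay at 271, 247 and 1503 in Ctrl and at 1383, 1572 and 386 in *MIR21*-KO. Thus Ctrl replicate 3 was with *MIR21*-KO replicates 1 and 2, and *MIR21*-KO replicate 3 nearer to Ctrl replicates 1 and 2. miR-23b-3p from the other cluster had the same layout, at 1030, 958 and 3806 (Ctrl) and 3388, 2952 and 1080 (*MIR21*-KO). The log2 fold changes of 1.02 for miR-23a-3p (interval -0.98 to 3.02, adjusted p = 0.717, limma) and 0.51 for miR-23b-3p (interval -1.11 to 2.12, adjusted p = 0.789, limma) had standard errors of 0.86 and 0.69. These values hung on single libraries. Leaving out Ctrl replicate 3 gave 1.86 and 1.15 (adjusted p = 0.138 and 0.212, limma) and leaving out *MIR21*-KO replicate 3 gave 1.66 and 1.02, whereas leaving out Ctrl replicate 2 gave 0.56 and 0.16. Without Ctrl replicate 1 they were 0.63 and 0.21, without *MIR21*-KO replicate 1 they were 0.74 and 0.20, and without *MIR21*-KO replicate 2 they were 0.65 and 0.30, and none of these fits called either strand. Within set A the difference of log2(value + 1) was 0.58 for miR-23a-3p and 0.12 for miR-23b-3p, and within set B it was -0.028 and -0.27.

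The passenger strands of miR-27 had the largest negative fold changes of the group. miR-27b-5p lay at 894, 695 and 234 in Ctrl and at 179, 174 and 369 in *MIR21*-KO. Only Ctrl replicate 3 reached into the range of *MIR21*-KO. In limma the fold change on the log2 scale was -1.21 with a standard error of 0.63 (adjusted p = 0.538), the lowest adjusted p among the 10 strands. miR-27a-5p, the corresponding strand of chromosome 19, lay at 1277, 1145 and 268 in Ctrl and at 253, 209 and 678 in *MIR21*-KO, with -1.15 on the log2 scale (standard error 0.75, adjusted p = 0.643, limma). Leaving out each library in turn, miR-27b-5p ran from -1.80 (without Ctrl replicate 3, adjusted p = 0.116, limma) to -0.83 (without Ctrl replicate 1), and miR-27a-5p from -1.87 (without Ctrl replicate 3, adjusted p = 0.129, limma) to -0.74 (without Ctrl replicate 1). On the deposited scale both were below Ctrl within each library set. The log2 differences in sets A and B were -1.09 and -0.40 for miR-27b-5p and -0.83 and -0.22 for miR-27a-5p. Scaling to all miRNA reads, miR-21 included, turned the fold changes of both strands to 0.17 and 0.24, beside a median of 1.34 over all miRNAs. Leaving miR-21 out of that total gave -1.47 and -1.40 (adjusted p = 0.417 and 0.584, limma). With a term for the library sets in limma, miR-27b-5p was at -0.75 (standard error 0.26, adjusted p = 0.0594) and miR-27a-5p at -0.52 (standard error 0.25, adjusted p = 0.166). This fit called 11.7% of all miRNAs higher and 6.43% lower, and 0 of the 10 strands in either direction. Its unadjusted p was under 0.05 for 1 of the 10, miR-27b-5p (20.1% of all in the higher and 11.2% in the lower direction). edgeR with the same term called 8.9% of all miRNAs higher and 6.26% lower and 0 of the 10 strands, with adjusted p of 0.0591 for miR-27b-5p and 0.153 for miR-27a-5p. These were the 2 strands with an unadjusted p under 0.05 in that edgeR fit (17.3% of all higher and 12.9% lower). The sets were read from these same libraries, and the p-values and shares of both fits with this term do not allow for that.

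**Figure D2:**
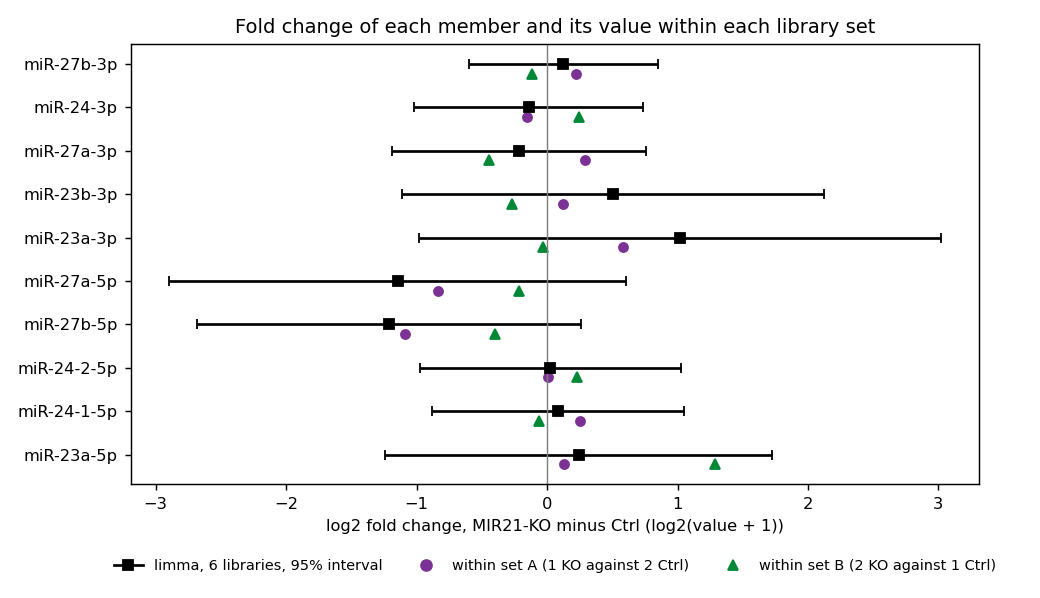
Log2 fold change of each strand from Ctrl to *MIR21*-KO on the log2(value + 1) scale, with squares and bars for limma and its 95% interval over 6 libraries, and smaller symbols for the difference within set A (circles) and within set B (triangles). All 10 intervals include 0, and miR-27a-5p and miR-27b-5p lie below 0 within both sets.

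The remaining 5p strands were scarce. miR-24-2-5p had a mean of 178 ± 33.8 in Ctrl and 182 ± 37.5 in *MIR21*-KO, and miR-24-1-5p 50.1 ± 4.29 and 53.6 ± 9.73 (SD, n = 3 each), with log2 fold changes of 0.024 and 0.082 whose sign turned with the scaling. miR-23a-5p rested on 11 to 82 reads a library, with values of 7.21, 11.4 and 1.55 in the Ctrl libraries and 4.61, 5.91 and 10.0 in the *MIR21*-KO libraries. In all, 4 of the 10 strands had the same sign in both library sets, against 68.5% of all 607 miRNAs. These were miR-23a-5p, miR-27a-5p, miR-27b-5p and, with a difference of only 0.0035 in set A, miR-24-2-5p.

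In size, the set difference fitted with condition exceeded the condition-only fold change for 9 of the 10 strands and 70.2% of all 607 miRNAs. Among the strands miR-24-1-5p was the exception, and the compared differences come from separate fits. In 6 of the 10 strands the sets did not overlap, 2 being higher and 4 lower in set B, where 35.1% and 22.1% of all 607 miRNAs did so, of which 321 served to define the sets. Means in set B were 4.93-fold those in set A for miR-23a-3p and 3.31-fold for miR-23b-3p. In the opposite direction, means in set A were 4.25-fold those in set B for miR-27a-5p, 3.33-fold for miR-27b-5p, 2.37-fold for miR-23a-5p and 1.46-fold for miR-24-3p. The 3p paralogs of miR-23 and the 5p paralogs of miR-27 thus had the same layout on both chromosomes, whereas the strands of the miR-23a hairpin, and likewise of miR-27a and miR-27b, did not. The log2 difference between the sets, with condition in the fit, was 2.23 for miR-23a-3p, and 59 of 607 miRNAs had one of at least this size. It was 1.74 for miR-23b-3p (119 of 607) and -1.86 for miR-27a-5p (101 of 607), so differences of this kind were common in these libraries. The median size of this difference was 0.98 over the 10 strands and 0.93 over all miRNAs tested. These are descriptions, since the sets were read from the same libraries.

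Ratios of strands within a library do not depend on its scaling factor, and 10 such ratios and shares were compared between Ctrl and *MIR21*-KO by two-sided exact permutation tests. With 3 libraries against 3 the smallest possible p is 0.1, and the p-values here ran from 0.2 to 0.9 (0.75 to 0.9 after Benjamini-Hochberg adjustment over the 10 comparisons). None of the 10 was free of overlap between the conditions, and 8 of 10 were between the library sets. Among the 3p strands of miR-23 and miR-27, the chromosome 19 paralog was the lesser one in every library. Per library, miR-23a-3p had 0.257 to 0.395 times the reads of miR-23b-3p in Ctrl and 0.357 to 0.532 times in *MIR21*-KO (log2 ratio -1.74 ± 0.35 and -1.23 ± 0.29, SD, n = 3 each, exact permutation p = 0.2). miR-27a-3p had 0.117 to 0.169 times the reads of miR-27b-3p in Ctrl and 0.0925 to 0.167 times in *MIR21*-KO (log2 ratio -2.81 ± 0.27 and -3.14 ± 0.49, SD, n = 3 each, exact permutation p = 0.3). Leaving out each library in turn, the difference of the log2 ratio ran from 0.35 to 0.71 for miR-23 and from -0.62 (without *MIR21*-KO replicate 3) to -0.19 (without *MIR21*-KO replicate 1) for miR-27. Reads of these paralogs can be parted only by bases at their 3′ end, so these ratios also depend on how trimmed or mismatched reads were counted, which is not given in the sources used here.

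Within a cluster, the guide strands did not keep a fixed proportion. miR-27a-3p had 19.04, 11.5 and 12.2 times the reads of miR-23a-3p in the libraries of set A (Ctrl replicates 1 and 2, then *MIR21*-KO), and 2.46, 1.90 and 1.79 times in those of set B (Ctrl, then *MIR21*-KO replicates 1 and 2). On chromosome 9, miR-27b-3p had 29.7, 19.995 and 26.0 times the reads of miR-23b-3p in set A and 8.33, 8.39 and 10.2 times in set B, in the same order. In both clusters miR-27 thus stayed above miR-23, by a factor that differed with the library set. miR-24-3p had 4.09 to 5.55 times the summed reads of miR-23a-3p and miR-23b-3p in set A and 0.741 to 1.03 times in set B. The *MIR21*-KO minus Ctrl differences of these 3 log2 ratios were -1.24, -0.38 and -0.78 (exact permutation p = 0.3, 0.8 and 0.7). Leaving out each library in turn, the first ran from -2.14 (without *MIR21*-KO replicate 3) to -0.62 (without Ctrl replicate 1), the second from -0.90 (without Ctrl replicate 3) to 0.016 (without Ctrl replicate 1), and the third from -1.73 (without Ctrl replicate 3) to -0.28 (without Ctrl replicate 1). Averaged within the library sets they were -0.35, 0.12 and 0.027. Summed over the strands that name their cluster, thus without miR-24-3p, chromosome 9 gave 4.67 to 4.97 times the value of chromosome 19 in set A and 6.37 to 7.15 times in set B.

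The 5p strand was the lesser product of each hairpin pair in every library. It reached its highest share in miR-27a, where it took 19.8%, 28.7% and 6.74% of both strands in Ctrl and 8.78%, 6.93% and 12.6% in *MIR21*-KO. The 95% Wilson interval of the highest share, that of Ctrl replicate 2, ran from 28.0% to 29.4%, and that of the lowest, Ctrl replicate 3, from 6.46% to 7.04%, so these libraries differed beyond counting error. These intervals cover counting error only, since reads were not identified by molecule. The 5p share of miR-27b was 2.84%, 3.50% and 0.732% in Ctrl, against 0.627%, 0.577% and 1.30% in *MIR21*-KO. That of miR-23a was 2.59%, 4.40% and 0.103% in the Ctrl libraries and 0.332%, 0.375% and 2.53% in the *MIR21*-KO libraries. In these 3 hairpins Ctrl replicate 3 was near *MIR21*-KO replicates 1 and 2, and the differences between the conditions were within the spread (-8.98, -1.53 and -1.29 percentage points, exact permutation p = 0.4, 0.2 and 0.6). Leaving out Ctrl replicate 3 gave -14.8, -2.34 and -2.42 percentage points and leaving out Ctrl replicate 2 gave -3.85, -0.954 and -0.270. Without *MIR21*-KO replicate 3 that of miR-23a was -2.01. Averaged within the library sets the differences were -5.26, -1.004 and -0.360 percentage points.

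miR-24 did not have this layout. Its 5p strands held 2.95%, 4.15% and 4.83% of all miR-24 reads in Ctrl and 5.54%, 3.76% and 4.03% in *MIR21*-KO, and both the conditions and the library sets overlapped (difference 0.469 percentage points, exact permutation p = 0.6).

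**Figure D3:**
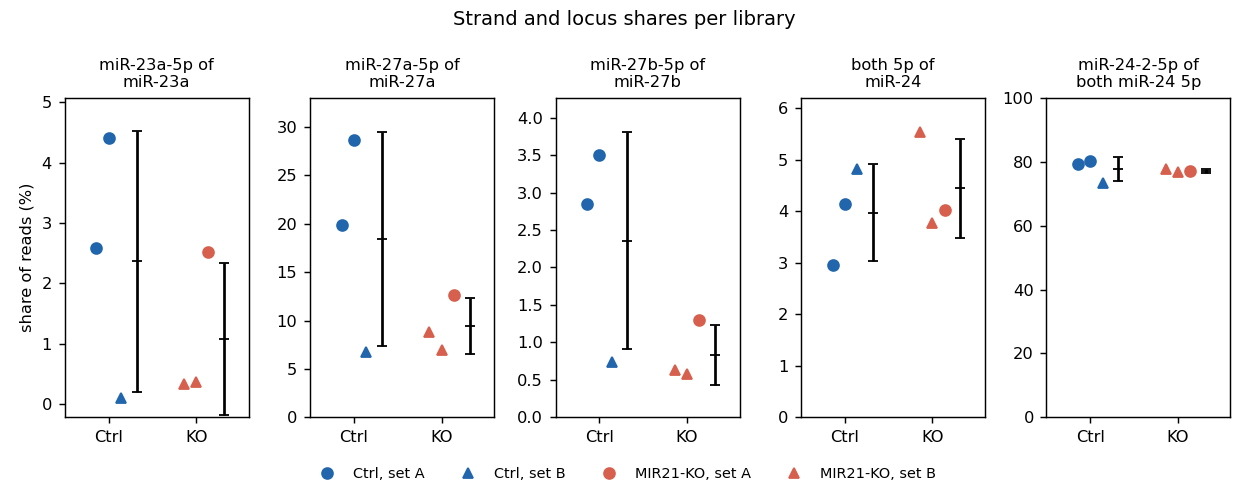
Share of the 5p strand in the reads of miR-23a, miR-27a, miR-27b and miR-24, and share of miR-24-2-5p in the reads of both miR-24 5p strands, in percent per library, with black bars for mean and SD of 3 libraries, circles for set A and triangles for set B. The first 3 panels part by library set, whereas the miR-24 panels do not, and miR-24-2-5p lies between 73.5% and 80.4% in all libraries.

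The locus of miR-24-3p cannot be read from the strand itself. The table lists it in 2 rows that do not name a locus, and the first of them held 49.7% to 50.4% of its reads in each library. The 5p strands do differ between the loci, and miR-24-2-5p of chromosome 19 made up 79.5%, 80.4% and 73.5% of both 5p strands in Ctrl and 77.9%, 76.8% and 77.0% in *MIR21*-KO. This share, 77.8% ± 3.75 in Ctrl and 77.2% ± 0.594 in *MIR21*-KO (SD, n = 3 each, exact permutation p = 0.9), overlapped between both the conditions and the library sets. Leaving out each library in turn moved the difference of -0.578 percentage points to between -2.73 (without Ctrl replicate 3) and 0.726 (without Ctrl replicate 2). The share rests on 823 to 3783 reads a library, and the Wilson interval was widest in Ctrl replicate 1, from 76.6% to 82.1%. Among the 5p strands of miR-24 chromosome 19 thus led, whereas among the 3p strands of miR-23 and miR-27 chromosome 9 did. How much of each 5p strand is degraded was not measured, so this share need not be that of miR-24-3p.

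Other miRNAs of these loci and seeds were scarce. miR-23b-5p, the passenger strand of miR-23b, lay at 22.97, 20.8 and 31.0 in Ctrl and at 27.1, 21.3 and 17.2 in *MIR21*-KO (log2 fold change -0.19, adjusted p = 0.856, limma). miR-23c, which shares the seed of miR-23-3p and comes from the X chromosome, had at most 38 reads a library, with values of 0 to 0.270 in set A and 2.31 to 2.82 in set B. Like miR-23a-3p and miR-23b-3p it was thus higher in set B, and its sequence differs from miR-23a-3p by G14U and U19A. The more abundant miR-23b-3p shares the U19A difference with miR-23c, although the last bases of miR-23b-3p and miR-23c differ. Whether some of the few miR-23c reads came from miR-23b-3p was not tested. miR-3074-5p and miR-3074-3p, from the strand opposite MIR24-1, did not exceed values of 1.01 and 0.130 and were not tested.

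The profiles of the guide strands over the 6 libraries were also set beside the 323 other miRNAs tested with a mean value of at least 10, by the root mean square difference of log2(value + 1) centred on the mean. miR-24-3p was nearest to miR-25-3p (0.105) and miR-106b-3p (0.122), and miR-27b-3p to let-7e-3p (0.127) and miR-424-3p (0.200). The nearest to miR-27a-3p were miR-222-3p (0.236) and miR-379-3p (0.247). For miR-23a-3p they were miR-655-3p (0.189) and miR-339-5p (0.197), and for miR-23b-3p miR-421 (0.193) and miR-22-3p (0.216), all of which were higher in set B than in set A. The median difference to all 323 miRNAs ran from 0.739 to 1.08. Among the 10 strands, the closest profiles were those of miR-24-2-5p and miR-24-1-5p (0.180) and of miR-27a-5p and miR-27b-5p (0.237), and the farthest apart those of miR-23a-3p and miR-27a-5p (2.24), 2 strands of the same cluster.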

How the data were processed

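The data were small RNA libraries of A549 cells, 3 for each of the groups Ctrl and *MIR21*-KO as titled in the labels. The authors deposited 1 signal value per miRNA row and library, which are counts per 1000000 scaled by TMM. The submitters' processing notes list cutadapt 1.14, Bowtie2 2.3.2, SAMtools 1.5, featureCounts 1.5.3, edgeR 3.18.1 and hg38; their settings, strandedness and treatment of reads that fit several loci are not given in the sources used here. Dividing by the value of 1 read gave whole reads for 100% of values (within 1e-06). Columns with fold changes and tests by the authors were left out.

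Rows of 1 name were summed. The fit was limma 3.58.1 (trend, R 4.3.3) on log2(value + 1) with condition as the only term and Benjamini-Hochberg adjustment over 607 miRNAs. Fold changes on this scale are understated for scarce miRNAs. Alternatives on the reads were DESeq2 1.42.0 and the quasi-likelihood test of edgeR 4.0.16. Others were the pseudocount, the filter, the scaling, terms for replicate number or library set, and leaving out each library. The limma and edgeR procedures were also run on simulated counts. These held no library sets, so that run does not cover data divided as these libraries are. No replicates were duplicates (chi-square per degree of freedom of at least 130). The strands named are the members, their listed neighbours and the 2 nearest profiles of each 3p strand. Members and lists were set by name and not by value, but they and the alternatives were chosen with earlier results of these data known. Positions come from GENCODE 29 and RefSeq, both on GRCh38.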

Additional observations from a re-analysis of the deposited data

How the results depend on the processing

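The count of strands called lower was 0 under every alternative run, and that of strands called higher was 0 under all but one. Scaled to the total of all miRNAs, 5 strands were called higher (miR-27a-3p, miR-24-3p, miR-24-2-5p, miR-24-1-5p and miR-27b-3p). miR-21-5p is part of this total, and the median log2 fold change was then 1.34 over all miRNAs, in place of 0.24, and 1.41 over the 10 strands. The share of all miRNAs called on this scale is not given here, so the 5 calls are not read as particular to these strands. Of 299 values under the alternatives, 42 changed sign. These were, scaled to the total, 1.17 for miR-27a-3p, 0.24 for miR-27a-5p, 1.24 for miR-24-3p and 0.17 for miR-27b-5p. With miR-21 left out of the total, with median-of-ratios size factors and with median centring, in this order, they were -0.23, -0.14 and -0.27 for miR-24-2-5p, -0.17, -0.075 and -0.21 for miR-24-1-5p and -0.13, -0.036 and -0.17 for miR-27b-3p, and -0.055 for miR-23a-5p with centring. DESeq2 gave -0.18 for miR-23a-5p, -0.22 for miR-24-2-5p, -0.14 for miR-24-1-5p and -0.15 for miR-27b-3p, and edgeR -0.0094 for miR-23a-5p and -0.022 for miR-24-2-5p. With the set term they were 0.045 for miR-24-3p and -0.073 for miR-23b-3p, and with edgeR and this term, chosen after seeing the data, 0.0015, -0.11 and, for miR-27b-3p, -0.011. Averaged within sets, the difference was 0.12 for the log2 ratio of miR-27b-3p to miR-23b-3p, 0.027 for that of miR-24-3p to miR-23 and 0.437 percentage points for the locus share of miR-24. The cause was not tested.

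With each library left out in turn, these ranged from -0.42 to 0.72 (miR-23a-5p), -0.48 to 0.0076 (miR-27a-3p), -0.40 to 0.043 (miR-24-3p), -0.11 to 0.20 (miR-24-2-5p), -0.0099 to 0.24 (miR-24-1-5p), -0.11 to 0.25 (miR-27b-3p), -0.90 to 0.016 (ratio of miR-27b-3p to miR-23b-3p), -0.0776 to 0.896 points (5p share of miR-24) and -2.73 to 0.726 points (locus share). With a mean value of at least 10 required, miR-23a-5p could not be fitted. Libraries of the same number share only a number: their deviations correlated at -0.786, -0.604 and -0.878 for replicates 1 to 3. With the replicate number as a block, 0 strands were called in either direction. The fold changes equalled those without the block, as they must with complete pairs, and the adjusted p of miR-27b-5p (limma) was 0.95.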
